A study of Mus musculus with 22 samples.

Results

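Livers of Cyp2c70 knockout mice fed ursodeoxycholic acid (UDCA) were compared with livers of untreated wild-type mice, using the 11 arrays of these 2 groups out of 22 in the study. The members were taken by their labels and not by any measured value. All mice were female, on the C57BL/6J background and 12 weeks old, and each array held total liver RNA of 1 mouse. KO_UDCA names the knockout mice whose feed held 0.1% UDCA for 7 weeks, beginning when they were 5 weeks old (n = 6). KO_chow names knockout mice on regular chow (n = 5), WT_UDCA names wild-type mice on the same UDCA diet (n = 6) and WT_chow names wild-type mice on chow (n = 5). The study's title asks about undoing cholangiopathy, a disease of the bile ducts, and the scarring around them, and KO_UDCA against WT_chow asks which genes still differ from untreated normal liver after treatment. The contrast changes genotype and diet together, so KO_chow and WT_UDCA values are given beside each called gene.

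Bile acids are made from cholesterol in hepatocytes, conjugated, secreted into bile and taken up again from the gut. Mouse liver differs from human liver in turning chenodeoxycholic acid and UDCA into hydrophilic muricholic acids, a step that CYP2C70 carries out, so mice without the enzyme keep a more hydrophobic pool. Hydrophobic bile acids injure bile duct cells, and injury of this kind is accompanied by ductular growth, collagen deposition and macrophage recruitment, while UDCA is itself a hydrophilic bile acid used as a drug in cholestatic disease.

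Values are log2 of the intensities as deposited, and changes are KO_UDCA minus WT_chow in log2 units. Median array intensities were 29.3 to 30.6 in KO_UDCA and 28.7 to 30.5 in WT_chow. The median log2 value of all rows and arrays was 4.9, and genes at or below that level are dim on this array. Hepatocyte markers identified the tissue in both groups: Alb averaged 13 in KO_UDCA and 13.02 in WT_chow, and 0 of 11 measured hepatocyte markers were called by limma, with 0 of 11 at an unadjusted p below 0.05. On the first principal component of all arrays, KO_UDCA mice lay between -11.4 and -0.66, KO_chow mice between 15.7 and 53.4 and WT_chow mice between -12.9 and -11.9. KO_UDCA replicate 4 lay at -0.66 and had the highest KO_UDCA mean for 15 of the 42 gene lists examined.

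Few genes separated treated knockout liver from untreated wild-type liver. Of 24011 genes tested with limma, 6 were called at a Benjamini-Hochberg adjusted p below 0.05, which is 0.025% of the genes (0.00416% higher, 0.0208% lower). The bile acid sulfotransferase gene Sult2a1, the fatty acid elongase gene Elovl3, Cyp2c70 itself, Tafa2 and Pls1 fell, and the collagen receptor gene Mrc2 rose. Sult2a1 and Elovl3 were the called genes that differed at least 2-fold. At an adjusted p below 0.1 there were 13 genes. In the same fit, KO_chow against WT_chow gave 3295 called genes, or 13.7%, of which 1847 (7.69%) were higher. That count fell to 1089 without KO_chow replicates 2 and 5. It was 1055 when the fit held only the arrays with title numbers 1 to 15. The title numbers run through the groups in 2 passes, 1 to 15 and 16 to 22, and no label calls the passes batches. The first pass holds 5 KO_UDCA and 3 WT_chow mice, and the second holds 1 and 2. KO_UDCA against KO_chow gave 2701, or 11.2%. KO_UDCA against WT_UDCA gave 4, or 0.0167%, all lower, and 1 with the passes as a block. WT_UDCA against WT_chow gave 0 by limma, with 1338 genes (5.57%) at an unadjusted p below 0.05. These comparisons share arrays, so their counts are not independent of each other.

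**Figure D1:**
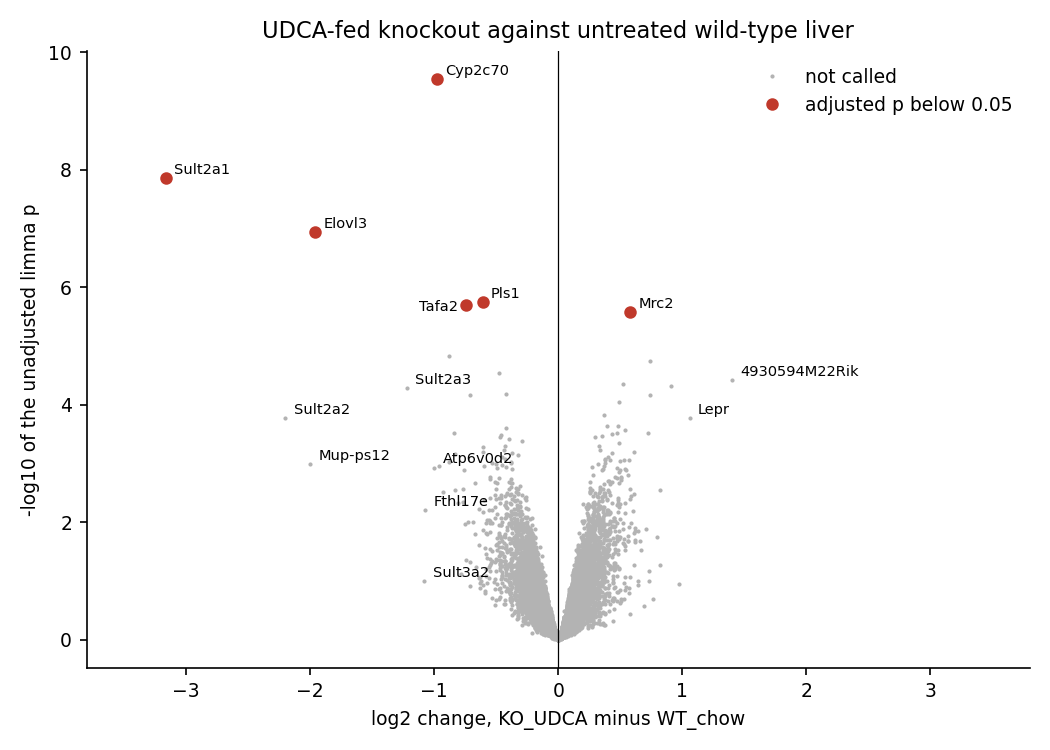
Log2 change of each of the 24011 genes in KO_UDCA relative to WT_chow (horizontal axis) against the negative log10 of its unadjusted limma p (vertical axis). The 6 called genes are in red, 1 to the right of 0 and 5 to the left, and genes that differed at least 2-fold are also named.

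A low count of calls does not show that the remaining genes were alike, so the interval of each difference was examined. Each interval rests on a variance pooled over all groups, so the spread of KO_chow and WT_UDCA mice enters it and the p-value. The 95% interval of the log2 change lay wholly within 1 unit of 0, that is within a 2-fold difference, for 23801 genes, or 99.1%. Many of these genes were dim, and the filter on dim genes kept 12175 of the 24011. For dim genes the measured difference can be smaller than that of the RNA. A narrow interval there does not show that expression lay within 2-fold. The median half-width of the interval was 0.241 log2 units, and it was 0.369 at the 90th percentile of genes. At an unadjusted p below 0.05 there were 1349 genes (5.62%), 701 higher (2.92%) and 648 lower (2.7%) in KO_UDCA. The arrays of the 2 groups did not overlap for 220 genes (0.916%), of which 214 were not called.

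Cyp2c70 was lower in every treated knockout mouse. It measured 10.27 at the lowest, 10.49 at the median and 10.74 at the highest in KO_UDCA, against 11.28, 11.41, 11.56, 11.57 and 11.62 in WT_chow. The groups did not overlap, and the difference was -0.98 (SE 0.0931, limma adjusted p = 6.83e-06), or 1.97-fold. KO_chow averaged 10.65 ± 0.12 and WT_UDCA 11.43 ± 0.14 (SD, n = 5 and 6), so both knockout groups stood below both wild-type groups. The signal left in knockout mice was far above the median of all rows, and the position of its probes relative to the deletion was not used here. Of the 15 measured genes of the Cyp2c family, which encode steroid and drug hydroxylases, Cyp2c70 was the one called. Besides it, Cyp2c39, Cyp2c50 and Cyp2c54 were lower at an unadjusted p below 0.05. With Cyp2c70 included that was 26.7% of the family, against 5.62% of all genes. Cyp2c70 is the knocked-out gene itself, so its part in that share follows from the design. Whether probes of the other Cyp2c genes also read Cyp2c70 RNA was not tested. Cyp2c39 differed by -0.41 (limma adjusted p = 0.579), with means of 6.94 in KO_UDCA, 6.49 in KO_chow, 6.85 in WT_UDCA and 7.35 in WT_chow.

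Sult2a1 had the largest difference of all genes. The gene encodes a sulfotransferase that adds sulfate to hydroxysteroids and bile acids, which makes them more soluble, and in mouse liver it is expressed more in females. It measured 4.61, 4.32, 4.53, 4.98, 3.9 and 5.07 in the KO_UDCA mice, against 8.25, 7.94, 7.72, 7.29 and 7.44 in the WT_chow mice. No KO_UDCA mouse came within 2 log2 units of any WT_chow mouse. The difference was -3.16 (SE 0.37, limma adjusted p = 0.000167), or 8.92-fold. With 16 added to every intensity before the log, which shrinks differences between dim values, it was -2.51. KO_chow averaged 3.01 ± 1.02 and WT_UDCA 6.77 ± 0.735 (SD, n = 5 and 6). KO_UDCA thus stood 1.56 above KO_chow (SE 0.37, limma adjusted p = 0.00759) and its difference from WT_UDCA was -2.20 (adjusted p = 0.0211). Neither call held throughout. With the passes as a block, the adjusted p against WT_UDCA was 0.0768, and with title numbers 1 to 15 only the adjusted p was 0.465 against WT_UDCA and 0.06 against KO_chow. Without KO_chow replicates 2 and 5 it was 0.169 against KO_chow. WT_UDCA mice split by pass, with 6.01 to 6.26 in title numbers 1 to 15 and 7.21 to 7.55 in 16 to 22.

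Of the relatives of Sult2a1, 5 were lower at an unadjusted p below 0.05 without passing the test. The list held 18 measured genes of sulfation, which are the sulfotransferase genes and Papss2, whose product makes the sulfate donor, and 1 was called. At an unadjusted p below 0.05 there were 6, or 33.3% against 5.62% of all genes. They were all of the Sult2a branch and all lower. The median log2 change of the 18 genes was -0.393, against 0.00204 over all genes. Sult2a2 measured between 6.17 and 8.65 in KO_UDCA, with a median of 7.15, against 9.25 to 9.69 in WT_chow. The groups did not overlap, but KO_UDCA mice were spread widely, and the difference of -2.20 (SE 0.492) had a limma adjusted p of 0.204. Sult2a3 differed by -1.22 (adjusted p = 0.0972) and Sult2a8, whose product acts on bile acids in mouse liver, by -0.55 (adjusted p = 0.5), in both cases with no overlap between the groups. Sult2a4 and Sult2a5 differed by -0.61 and -0.73 with overlapping mice. Sult2a6, Sult2a7 and Sult2b1, all dim, differed by 0.01, -0.28 and 0.06 (unadjusted p = 0.968, 0.151 and 0.643). The Sult2a genes are close in sequence, so an array can read one through the probes of another, and their values are uncertain as separate genes. Sult3a1, of another branch, averaged 8.57 ± 0.745 in KO_UDCA, 6.76 ± 0.714 in KO_chow and 9.14 ± 0.348 in WT_chow, and KO_UDCA differed from WT_chow by -0.57 (95% interval -1.27 to 0.14). The mean of the whole list lay between -0.793 and -0.501 in the 6 KO_UDCA mice, between -1.62 and -0.751 in KO_chow and between -0.113 and 0.075 in WT_chow, each relative to the WT_chow mean.

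**Figure D2:**
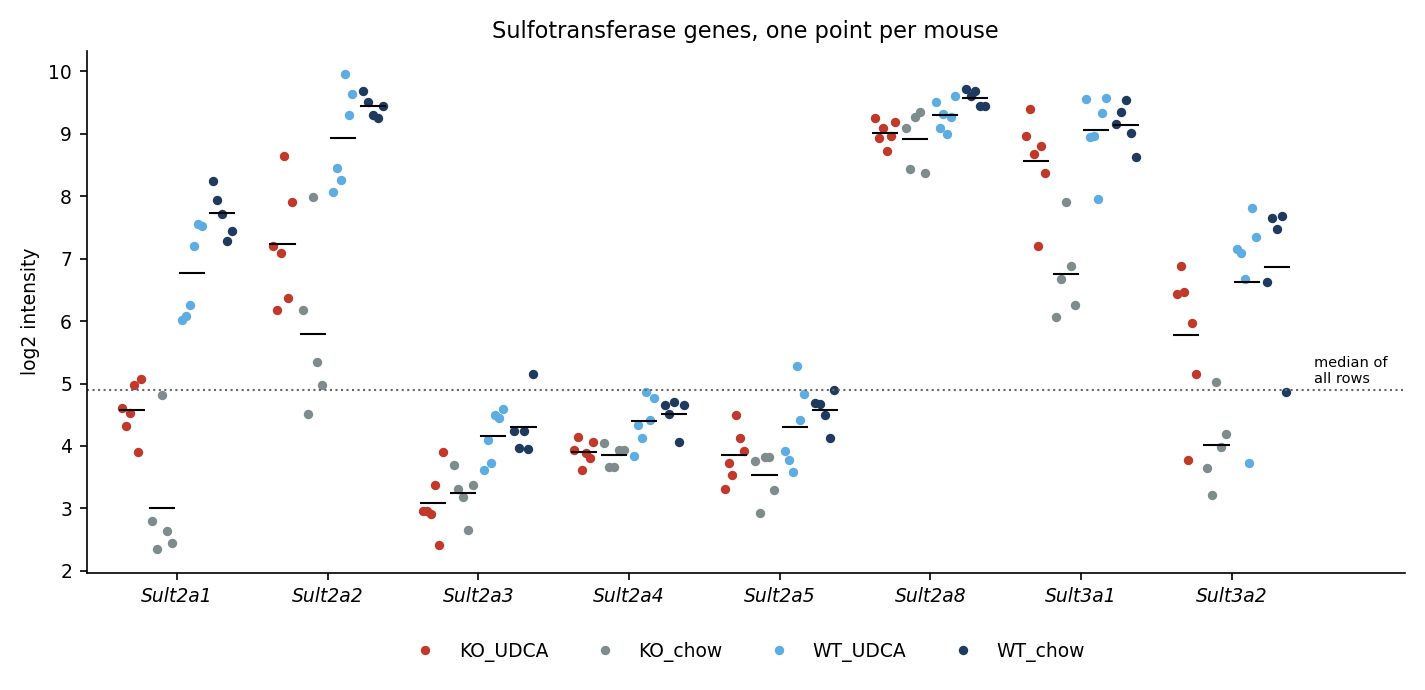
Log2 intensity (vertical axis) of 8 sulfotransferase genes by mouse, with a bar at each group mean and a dotted line at 4.9, the median of all rows. Sult2a1 runs from 3.9 to 5.07 in KO_UDCA and from 7.29 to 8.25 in WT_chow, and the Sult2a3, Sult2a4 and Sult2a5 means lie below the dotted line in all groups.

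Elovl3 encodes an endoplasmic reticulum enzyme that lengthens very long chain fatty acids, and in mouse liver it is known for daily rhythm and for higher expression in males. It measured 3.96, 4.11, 3.67, 3.55, 3.85 and 4 in KO_UDCA, against 6, 5.08, 6.12, 5.77 and 6.13 in WT_chow. All KO_UDCA mice were below all WT_chow mice and below the median of all rows. The difference was -1.96 (SE 0.26, limma adjusted p = 0.00091), or 3.9-fold, and -1.26 with 16 added to every intensity. KO_chow averaged 3.74 ± 0.48 and WT_UDCA 4.75 ± 0.656 (SD, n = 5 and 6). KO_UDCA against WT_UDCA gave -0.89 (adjusted p = 0.525), and WT_UDCA against WT_chow gave -1.07 (adjusted p = 0.461). Of 18 measured clock genes and clock outputs limma called 0, with 0 at an unadjusted p below 0.05 against 5.62% of all genes. The time of day of tissue collection was not used here, and whether it differed between the groups was not tested. Susd4, another male-biased gene, measured 4.88 ± 0.281 in KO_UDCA and 5.38 ± 0.167 in WT_chow (difference -0.50, adjusted p = 0.394). Of 15 measured male-biased genes 1 was called, Elovl3, and 4 (26.7%, against 5.62% of all genes) were lower at an unadjusted p below 0.05. Of 17 female-biased genes 1 was called, Sult2a1, and 3 (17.6%) had an unadjusted p below 0.05, 2 lower and 1 higher.

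Tafa2, which encodes a small secreted chemokine-like protein known from the nervous system, was lower in both knockout groups. It measured 4.63, 4.7, 4.32, 4.25, 4.65 and 4.69 in KO_UDCA, against 5.48, 5.44, 5.11, 5.35 and 5 in WT_chow. The groups did not overlap, and the difference was -0.74 (SE 0.117, limma adjusted p = 0.00959). KO_chow averaged 4.36 ± 0.211 and WT_UDCA 5.23 ± 0.164, and KO_UDCA against WT_UDCA gave -0.69 (adjusted p = 0.0211, and 0.0768 with the passes as a block). The call against WT_chow ended without WT_chow replicate 1, 2 or 4, where the adjusted p was 0.0578, 0.0549 and 0.0505. It also ended in the fit to the KO_UDCA and WT_chow arrays alone (0.0679) and with title numbers 1 to 15 only (0.0617).

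Pls1 encodes plastin 1, which bundles actin in microvilli. It measured between 4.48 and 4.93 in KO_UDCA, with a median of 4.86, against 5.2, 5.34, 5.38, 5.45 and 5.76 in WT_chow. No mice overlapped, and the difference was -0.61 (SE 0.0969, limma adjusted p = 0.00959). Both UDCA groups were the lower ones here, since WT_UDCA averaged 4.99 ± 0.0819 and KO_chow 5.49 ± 0.141 (SD, n = 6 and 5). KO_UDCA against WT_UDCA gave -0.18 (adjusted p = 0.914) and WT_UDCA against WT_chow -0.44 (adjusted p = 0.461). The call ended without WT_chow replicate 4 (adjusted p = 0.0505), in the fit to the KO_UDCA and WT_chow arrays alone (0.106) and with title numbers 1 to 15 only (0.198).

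Mrc2 encodes an endocytic receptor of fibroblasts and other mesenchymal cells that takes up collagen for breakdown. It measured 5.46, 5.4, 5.4, 5.44, 5.22 and 5.22 in KO_UDCA, against 5.13, 4.61, 4.63, 4.75 and 4.78 in WT_chow. The lowest KO_UDCA mice stood just above WT_chow replicate 1, the highest of its group. The difference was 0.58 (SE 0.0934, limma adjusted p = 0.0106), or 1.49-fold. KO_chow averaged 5.76 ± 0.121 and WT_UDCA 5.17 ± 0.135, so KO_UDCA lay between KO_chow and WT_UDCA. KO_UDCA against KO_chow gave -0.41 (adjusted p = 0.00581), and against WT_UDCA it gave 0.19 (adjusted p = 0.907). The call ended without WT_chow replicate 2, 3 or 4, where the adjusted p was 0.065, 0.0552 and 0.0505. It also ended in the fit to the arrays of KO_UDCA and WT_chow alone (0.0926) and with title numbers 1 to 15 only (0.172).

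**Figure D3:**
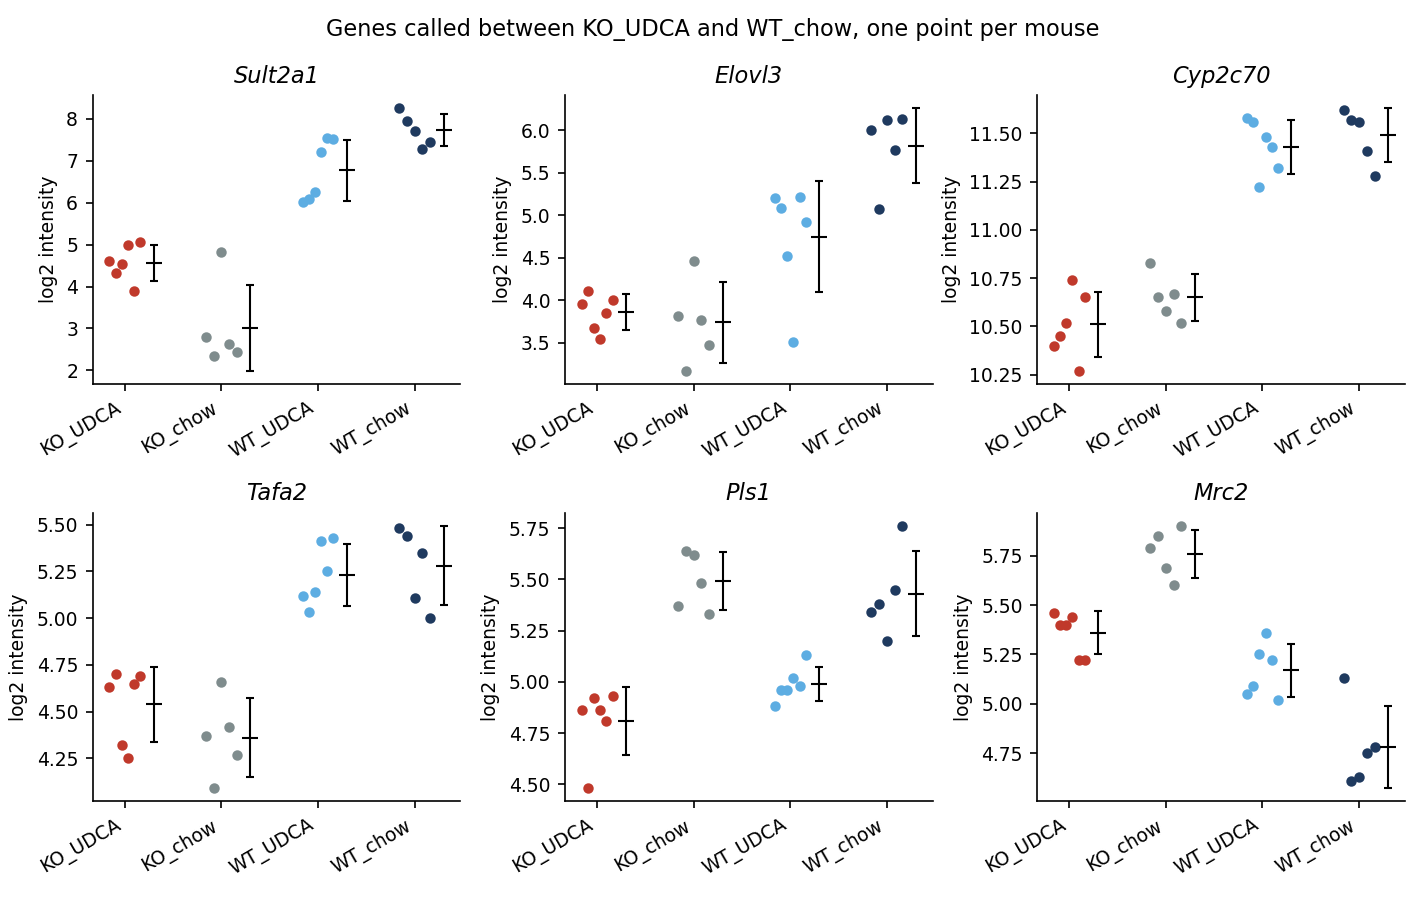
Log2 intensity (vertical axes, each with its own range) of the 6 called genes, 1 point per mouse, with mean and SD beside each group. Sult2a1, Elovl3, Cyp2c70 and Tafa2 are low in both knockout groups, Pls1 is low in both UDCA groups, and Mrc2 is lowest in WT_chow.

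Promoter sequences were looked up for the 6 called genes to show what lies upstream of them, and RefSeq windows on build GRCm38.p6 were found for 3. Each is the 250 bases before the annotated start, 5′ to 3′ on the gene's strand. Capitals mark matches on either strand to AGGTCA, the half-site of many nuclear receptors, or to TATAAA, the TATA box. The windows are Cyp2c70 at chr19:40187287-40187536 (minus strand), Pls1 at chr9:95845280-95845529 (minus strand) and Tafa2 at chr10:123263826-123264075 (plus strand).
Cyp2c70: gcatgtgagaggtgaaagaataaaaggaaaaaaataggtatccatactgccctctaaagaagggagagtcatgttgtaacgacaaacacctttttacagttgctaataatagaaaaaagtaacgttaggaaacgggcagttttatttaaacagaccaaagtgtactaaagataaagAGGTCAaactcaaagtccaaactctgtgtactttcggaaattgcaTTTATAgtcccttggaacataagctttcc
Pls1: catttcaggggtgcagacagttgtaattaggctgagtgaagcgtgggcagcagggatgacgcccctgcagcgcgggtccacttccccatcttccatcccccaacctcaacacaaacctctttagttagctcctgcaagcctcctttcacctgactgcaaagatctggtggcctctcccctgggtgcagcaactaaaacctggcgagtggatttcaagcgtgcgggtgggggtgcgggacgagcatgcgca
Tafa2: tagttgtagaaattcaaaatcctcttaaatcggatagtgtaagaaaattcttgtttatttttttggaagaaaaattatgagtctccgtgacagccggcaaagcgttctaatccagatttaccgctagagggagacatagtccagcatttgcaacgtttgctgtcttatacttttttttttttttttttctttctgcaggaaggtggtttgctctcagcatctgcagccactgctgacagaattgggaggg
The Cyp2c70 window held AGGTCA on the gene's strand at -74 to -69 and TATAAA on the opposite strand at -29 to -24, counted from the start. The other windows held neither. Of 32851 promoter windows of this length, 14% held AGGTCA and 12.4% TATAAA.

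Genes of bile acid synthesis were mostly measured below wild type, and none was called. Limma called 0 of 17, and 2 (11.8%, against 5.62% of all genes) had an unadjusted p below 0.05, both lower. The list's median change was -0.114. Cyp8b1, which directs synthesis toward cholic acid, measured between 8.04 and 9.09 in KO_UDCA, with a median of 8.79, against 9.39 to 9.85 in WT_chow. The groups did not overlap, yet the difference of -0.96 (SE 0.258) had an adjusted p of 0.396. KO_chow averaged 6.84 ± 0.828 and WT_UDCA 9.51 ± 0.3 for this gene. With KO_chow replicates 2 and 5 left out of the fit, the adjusted p of KO_UDCA against WT_chow was 0.0481. Cyp7a1, the rate-limiting enzyme of the main synthesis pathway, averaged 10.01 ± 0.484 in KO_UDCA, 8.56 ± 1.39 in KO_chow, 10.41 ± 0.363 in WT_UDCA and 10.64 ± 0.287 in WT_chow. Its difference from WT_chow was -0.63 with a 95% interval of -1.46 to 0.20, wide enough to hold a more than 2-fold decrease. The wide spread of KO_chow enters this interval through the pooled variance, as it does for Cyp8b1.

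No transport or sensing gene of bile acids was called. The canalicular bile salt pump gene Abcb11 averaged 10.9 ± 0.156 in KO_UDCA, 10.97 ± 0.272 in KO_chow, 10.87 ± 0.153 in WT_UDCA and 11.16 ± 0.0781 in WT_chow (difference -0.26, limma adjusted p = 0.813). Slc51a and Slc51b, the subunits of the basolateral exporter, were dim and differed by -0.31 and -0.69 (adjusted p = 0.632 and 0.702). Slc51b averaged 3.92 in KO_UDCA, 5.83 in KO_chow, 3.71 in WT_UDCA and 4.61 in WT_chow. Limma called 0 of 13 exporters, with 3 (23.1%, against 5.62% of all genes) lower at an unadjusted p below 0.05. The uptake carrier gene Slc10a1 differed by -0.05 (95% interval -0.25 to 0.14), the bile acid receptor gene Nr1h4 by -0.06 (-0.34 to 0.23) and its target Nr0b2 by -0.05 (-0.50 to 0.39). Among 12 receptors and regulators limma called 0, with 0 at an unadjusted p below 0.05.

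No bile duct gene was called. Limma called 0 of 17 measured cholangiocyte markers in KO_UDCA, while 13 were called higher in KO_chow against WT_chow. In KO_UDCA 4 (23.5%, against 5.62%) had an unadjusted p below 0.05, all higher, and the median change was 0.108. Krt7, a ductal keratin, averaged 4.9 ± 0.234 in KO_UDCA, 5.32 ± 0.304 in KO_chow and 4.82 ± 0.161 in WT_chow, with an interval of -0.18 to 0.34 for KO_UDCA against WT_chow. The tetraspanin gene Tspan8 measured 4.38, 4.54, 5.14, 5.51, 5.18 and 4.45 in KO_UDCA and 6.88 to 8.52 in KO_chow, against 4.18 to 4.48 in WT_chow. Of the KO_UDCA mice, 4 were above all WT_chow mice and none reached KO_chow. The difference from WT_chow was 0.56 (95% interval 0.09 to 1.03, adjusted p = 0.801). Muc1, a mucin of ductal epithelium, differed by 0.52 (0.14 to 0.91). Sprr1a and Ly6d, genes of stratified epithelium that stood 5.35 and 4.20 log2 units above WT_chow in KO_chow, differed in KO_UDCA by -0.11 (-1.19 to 0.98) and 0.23 (-0.48 to 0.94). Their SD in KO_chow was 1.94 and 1.24, and that spread enters both intervals. Tspan8 and Sprr1a averaged below 4.9 in both KO_UDCA and WT_chow and were dim there. In whole liver RNA, fewer cells of a type and less RNA per cell cannot be told apart.

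Matrix genes were mostly measured slightly above wild type, and none was called. Of 38 measured matrix genes, limma called 0. At an unadjusted p below 0.05, 9 were higher and 1 lower, or 26.3% against 5.62% of all genes, and the median change was 0.181. In KO_chow against WT_chow, 35 of the 38 were called higher, with a median change of 0.971. The mean of the list lay between 0.0323 and 0.382 in KO_UDCA mice, between 0.951 and 1.58 in KO_chow and between -0.0384 and 0.0448 in WT_chow, and the highest KO_UDCA mouse was replicate 4. Col6a3, a chain of microfibrillar collagen, measured 5.91 to 6.64 in KO_UDCA, with a median of 6.16, against 5.51 to 5.86 in WT_chow. These mice did not overlap, and the difference was 0.54 (SE 0.126, limma adjusted p = 0.268). The fibrillar collagen genes Col1a1 and Col3a1 differed by 0.28 (95% interval -0.07 to 0.63) and 0.11 (-0.22 to 0.44), against 2.16 and 1.75 in KO_chow. Replicate 4 had the highest KO_UDCA values for both, 7.21 and 7.7.

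No member of the portal fibroblast or stellate cell lists was called. Of 11 portal fibroblast markers limma called 0, and 3 (27.3%, against 5.62% of all genes) were higher at an unadjusted p below 0.05. Gsn, which encodes the actin-severing protein gelsolin, averaged 7.51 ± 0.262 in KO_UDCA and 7 ± 0.0796 in WT_chow with no overlap (difference 0.52, adjusted p = 0.0964). Without KO_UDCA replicate 2 its adjusted p was 0.0368. Dpt, a dermatopontin gene of fibroblasts, differed by 0.61 (adjusted p = 0.358). Among 13 stellate cell markers limma called 0, with 2 (15.4%, against 5.62%) higher at an unadjusted p below 0.05.

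Macrophage markers other than those of Kupffer cells were mostly measured slightly above wild type, and none was called. Limma called 0 of 14 markers of monocyte-derived and scar-associated macrophages, with 2 (14.3%, against 5.62%) higher at an unadjusted p below 0.05, and 13 of the 14 were called higher in KO_chow against WT_chow. The list's mean lay between 0.0985 and 0.384 in KO_UDCA, between 1.11 and 2.51 in KO_chow and between -0.0935 and 0.0555 in WT_chow, with no overlap among the 3 groups. Ms4a7 averaged 4.69 ± 0.332 in KO_UDCA and 4.1 ± 0.226 in WT_chow (difference 0.59, adjusted p = 0.579). The elastase gene Mmp12 differed by 0.45 (95% interval -0.26 to 1.16) and Gpnmb by 0.19 (-0.25 to 0.62), where KO_chow had differed by 4.99 and 3.02. Ms4a7 and Gpnmb were dim in both KO_UDCA and WT_chow. Of 13 Kupffer cell markers limma called 0. The Kupffer lectin gene Clec4f differed by 0.00 (-0.19 to 0.19), and the haemoglobin scavenger receptor gene Cd163 by -0.50 (-0.92 to -0.07, adjusted p = 0.813). Cd163 was the only one of the 13 at an unadjusted p below 0.05, against 5.62% of all genes. The acute phase gene Saa1 differed by 0.12 (-0.48 to 0.72), and limma called 0 of 19 acute phase genes, with 0 at an unadjusted p below 0.05.

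**Figure D4:**
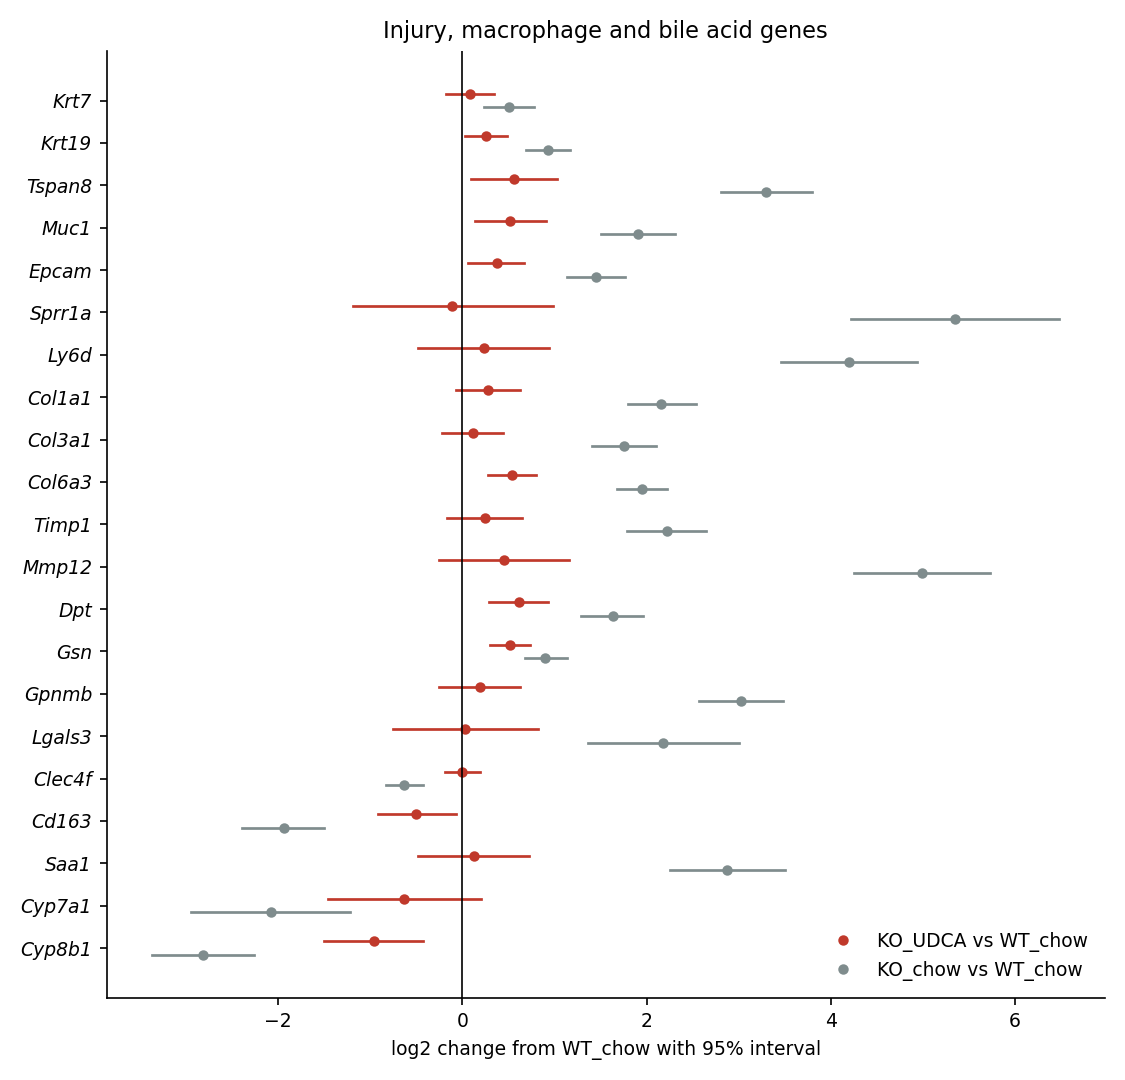
Log2 change from WT_chow with its 95% interval (horizontal axis) for 21 injury, macrophage and bile acid genes, KO_UDCA in red above KO_chow in grey. For Mmp12 the KO_UDCA interval runs from -0.26 to 1.16 around 0.45 and the KO_chow value is 4.99, and the KO_UDCA intervals of Krt19, Tspan8, Muc1, Epcam, Col6a3, Dpt, Gsn, Cd163 and Cyp8b1 do not reach 0.

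Genes of pericentral hepatocytes, the cells around the central vein that make glutamine and are kept in that state by Wnt signals, were measured lower without any call. Limma called 0 of 17, and 7 (41.2%, against 5.62%) were lower at an unadjusted p below 0.05, the highest share among the 42 lists. The median change was -0.203. Rhbg, an ammonia transporter gene, measured 6.4 to 6.76 in KO_UDCA, with a median of 6.62, against 6.82 to 7.13 in WT_chow, with no overlap (difference -0.38, adjusted p = 0.392). For Rhbg, KO_chow averaged 6.56 and WT_UDCA 6.86, so the lower level was also present in untreated knockout mice. Oat and Gulo differed by -0.33 and -0.29 with overlapping mice. Their means were 10.96 and 10.81 in KO_chow, and 11.11 and 11.16 in WT_UDCA. Glul, the glutamine synthetase gene, differed by -0.12 (95% interval -0.34 to 0.10).

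Lipid and drug metabolism genes gave no call outside those already named. Limma called 0 of 20 measured cholesterol synthesis and SREBP2 target genes, with 1 (5%) lower at an unadjusted p below 0.05, and 18 of the 20 changes were negative, with a median of -0.129. Hmgcs1, which makes a precursor of cholesterol, averaged 10.4 ± 0.254 in KO_UDCA and 10.84 ± 0.353 in WT_chow (difference -0.45, limma adjusted p = 0.797). Of 18 lipogenesis genes limma called 0, with 1 (5.56%) higher at an unadjusted p below 0.05. Of 24 fatty acid oxidation genes it called 0, with 1 (4.17%) lower, and these shares are near the 5.62% of all genes. The drug-inducible genes Cyp3a11 and Cyp2b10 differed by 0.02 (95% interval -0.16 to 0.20) and 0.50 (-0.36 to 1.35). Among 20 measured P450 genes outside the Cyp2c family limma called 0, with 2 (10%, against 5.62%) lower at an unadjusted p below 0.05.

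Immune markers other than macrophages were also without a call. Of 15 T and NK cell markers limma called 0, with 2 (13.3%, against 5.62%) higher at an unadjusted p below 0.05. Ccl5, a chemokine of these cells, averaged 6.07 ± 0.304 in KO_UDCA, 6.23 ± 0.159 in KO_chow, 6.05 ± 0.277 in WT_UDCA and 5.7 ± 0.2 in WT_chow, so WT_chow was the lowest of the 4 groups. Cxcl9, an interferon-induced chemokine, averaged 8.19 ± 0.306 in KO_UDCA, 8.18 ± 0.308 in KO_chow, 8.19 ± 0.529 in WT_UDCA and 7.66 ± 0.291 in WT_chow. KO_UDCA differed from WT_chow by 0.37 for Ccl5 and 0.53 for Cxcl9 (limma adjusted p = 0.77 and 0.794). Among 14 neutrophil markers limma called 0, with 0 at an unadjusted p below 0.05, while 8 were called higher in KO_chow against WT_chow. Most of the 14 were dim in KO_UDCA and WT_chow, Retnlg for example averaging 3.51 and 3.23, so a small difference could be missed.

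Of all genes, 10 differed at least 2-fold, called or not. Besides Sult2a1, Elovl3, Sult2a2 and Sult2a3, these were Mup-ps12, Sult3a2, Fthl17e and Atp6v0d2 on the lower side and Lepr and 4930594M22Rik on the higher side. Mup-ps12 averaged 3.22 ± 0.947 in KO_UDCA and 5.21 ± 0.81 in WT_chow, with overlapping mice (difference -2, limma adjusted p = 0.394). Atp6v0d2, a subunit gene of the vacuolar proton pump, ran from 6.83 to 8.94 in KO_UDCA and from 8.13 to 8.94 in WT_chow. Its highest KO_UDCA value was that of replicate 4. Without that mouse the difference was -1.27 with an adjusted p of 0.0213, against -1 and 0.396 with it. KO_chow averaged 8.07 and WT_UDCA 7.91 for this gene, and KO_UDCA against WT_UDCA gave -0.31 (limma adjusted p = 0.975). 4930594M22Rik measured 3.53 to 4.29 in KO_UDCA, against 1.84 to 2.97 in WT_chow, all below the median of all rows (difference 1.40, adjusted p = 0.0923).

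Across all 42 gene lists, which hold 622 measured genes, 38 lists had no called member. The share of members at an unadjusted p below 0.05 was above the share of all genes in 25 lists. In a short list a single such member exceeds that share, so this count does not measure a shift. The 4 lists with a called member owed it to Sult2a1, Cyp2c70 or Elovl3.

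**Figure D5:**
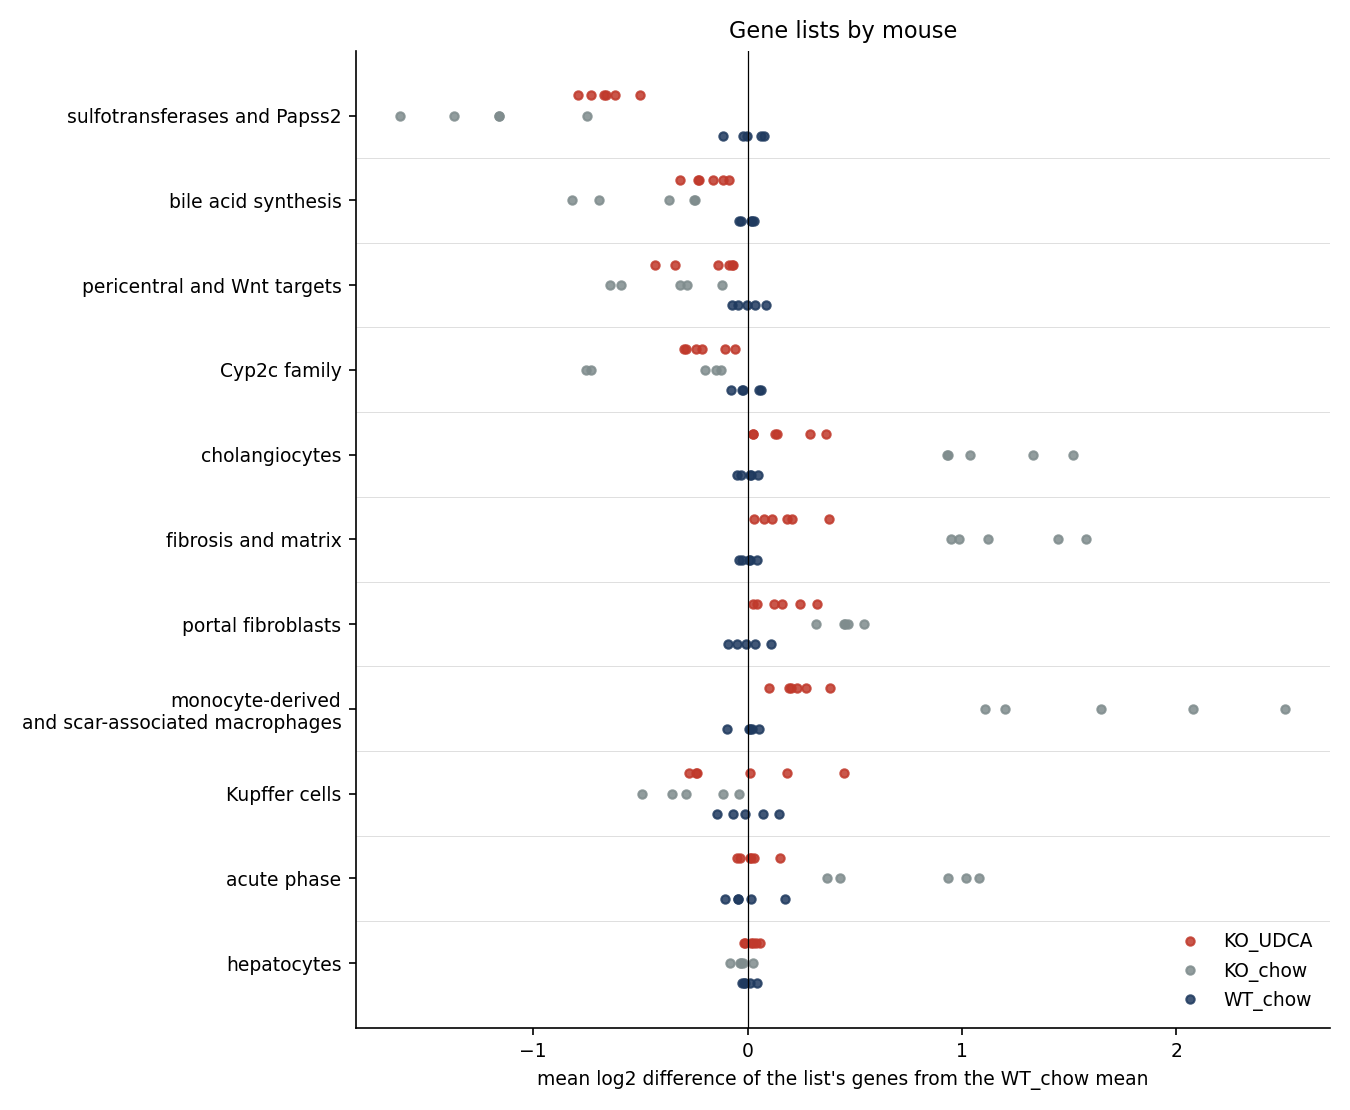
Mean log2 difference of a list's genes from the WT_chow mean (horizontal axis), 1 point per mouse, for 11 gene lists in KO_UDCA, KO_chow and WT_chow. Means of the sulfotransferase list, Papss2 included, run from -0.793 to -0.501 in KO_UDCA, matrix means from 0.0323 to 0.382, and hepatocyte means from -0.0162 to 0.0599.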

How the data were processed

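Per the labels, the authors deposited RMA intensity values on an unlogged scale for 22 arrays; the submitters' processing notes give no version, and no genome build was found in the labels. Of 24973 rows, those with 1 gene symbol in the platform annotation were kept (24015; 958 had none), 23922 matched RefSeq by gene ID, and the brightest row per symbol left 24011 genes. Intensities were converted to log2 here, with no pseudocount or filter. Group means over the whole set of 22 arrays came from limma 3.58.1 (R 4.3.3), with shared variances, two-sided p-values and Benjamini-Hochberg adjustment over 24011 genes. The number of arrays limits the precision.

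Genes were named by a rule: called genes whose groups do not overlap, up to 3 called members of each list or else the member with the smallest p, and a fixed set, of which 3 genes were not analysed here. The rule gave 66 genes. 4930594M22Rik, Alb, Atp6v0d2, Cxcl9, Cyp2c39, Cyp2c50, Cyp2c54, Dpt, Epcam, Fthl17e, Glul, Gulo, Mup-ps12, Oat, Slc51b, Sult2a2, Sult2a3, Sult2a4, Sult2a5, Sult2a6, Sult2a7, Sult2a8, Sult2b1, Sult3a2 and Susd4 lie outside it and were named after their values were seen. Fam180a and Selenok were neither called nor on a list, so of the rule only the fixed set could have named them. Members and lists were chosen with earlier results of these data known. List symbols no longer current in RefSeq were updated through its synonyms after values were seen. Alternatives changed the filter, pseudocount, centring, normalization, variance model and arrays used. Mice were numbered in record order, and a number pairs nothing. The labels call the samples biological replicates.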

Additional observations from a re-analysis of the deposited data

Results flagged for a closer look

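Single mice stood apart from the rest of their group by Dixon's gap test for 10 of 200 pairs of a gene and a group, or 5%. Chance alone gives about that share. In KO_UDCA, Pls1 measured 4.48 in replicate 2 (the others 4.81 to 4.93), Krt7 measured 5.35 in replicate 3 (4.7 to 4.93), Saa1 measured 7.71 in replicate 4 (6.86 to 7.09), Glul measured 11.25 in replicate 4 (11.66 to 11.85) and Fthl17e measured 3.57 in replicate 6 (4.32 to 4.54). In WT_chow, Sprr1a measured 4.39 in replicate 1 (4.04 to 4.07), Acadm measured 10.74 in replicate 2 (10.91 to 10.97), Slc51b measured 4.22 in replicate 3 (4.66 to 4.79), Cyp2b10 measured 7.66 in replicate 4 (6.88 to 7.02) and Sult2a3 measured 5.15 in replicate 5 (3.95 to 4.24).

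For 2 called genes the effect of UDCA differed between knockout and wild type by the interaction term of the limma fit. For Mrc2 the term was -0.79 (SE 0.132, adjusted p = 0.00191), with UDCA minus chow at -0.41 in knockout and 0.39 in wild type, and its adjusted p was 0.138 with title numbers 1 to 15 only. For Sult2a1 it was 2.51 (SE 0.523, adjusted p = 0.0112), with 1.56 in knockout and -0.95 in wild type. The wild-type value was -1.85 in title numbers 1 to 15 and 0.07 in 16 to 22. Without KO_chow replicates 2 and 5 the interaction had an adjusted p of 0.085.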

How the results depend on the processing

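The comparison was recomputed under 21 other settings, 11 of which left out 1 array. Cyp2c70, Elovl3 and Sult2a1 were called in 21 of 21, and no called gene reversed direction. Of 100 genes followed through these settings, 10 that were uncalled in the main fit were called in 1 or more of them. The fit to the KO_UDCA and WT_chow arrays alone, and the use of title numbers 1 to 15 only, each ended the calls of Mrc2, Pls1 and Tafa2, with adjusted p of 0.0926, 0.106 and 0.0679 in the fit to these arrays alone. Leaving out 1 array gave 3 (without WT_chow replicate 4) to 10 (without KO_UDCA replicate 6) called genes, 0 to 2 higher, 3 to 8 lower and 2 to 5 at least 2-fold. Genes called higher numbered 2 in the fit to the KO_UDCA and WT_chow arrays alone and 2 with a pseudocount of 16. Called genes numbered 11 (4 higher) with the filter on dim genes, which kept 12175, 10 (3 higher) with trend and robust variances and 11 (4 higher) with array weights per group. With title numbers 1 to 15 only, 4 genes were called and at least 2-fold. KO_UDCA against WT_UDCA gave 1 call with a block for title numbers 1 to 15 and 16 to 22, 1 with title numbers 1 to 15 only, and 1 to 4 with 1 array left out. KO_chow against WT_chow gave 1055 with title numbers 1 to 15 only, 1089 without KO_chow replicates 2 and 5 (a setting chosen after seeing the data) and 2707 to 3252 with 1 array left out. WT_UDCA against WT_chow gave 0 to 1 with 1 array left out. The causes of these moves were not tested. No paired analysis was possible because the labels carry no replicate numbers shared between groups. Sult2a1 and Elovl3 lie near or below the median of all rows in KO_UDCA, so their folds are limited by dim signal. Tafa2 and Pls1 also averaged below it in KO_UDCA (4.54 and 4.81), and Mrc2 did so in WT_chow (4.78).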

Other observations

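Lepr, the leptin receptor gene, measured higher in KO_UDCA without passing the test. It ran from 7.7 to 9.2 in KO_UDCA, with a median of 8.44, against 6.68 to 7.94 in WT_chow, and the difference was 1.06 (SE 0.236, limma adjusted p = 0.204). KO_chow averaged 6.57 ± 0.294 and WT_UDCA 8.05 ± 0.266. Selenok, which encodes a selenoprotein of the endoplasmic reticulum, averaged 6.7 ± 0.213 in KO_UDCA, 7.1 ± 0.0784 in KO_chow, 6.78 ± 0.14 in WT_UDCA and 7.18 ± 0.0819 in WT_chow, and KO_UDCA differed from WT_chow by -0.48 (limma adjusted p = 0.0771). Fam180a averaged 5.93 ± 0.306 in KO_UDCA and 5.02 ± 0.277 in WT_chow, with no overlap (difference 0.91, limma adjusted p = 0.0972). Apoa4, an apolipoprotein gene, differed by 0.48 (limma adjusted p = 0.659), and the scavenger receptor gene Cd36 by -0.38 (limma adjusted p = 0.496). Apoa4 averaged 10.14 in KO_UDCA, 10.69 in KO_chow, 10.07 in WT_UDCA and 9.66 in WT_chow. Cd36 averaged 8.93, 9.13, 9.03 and 9.31 in the same order, so WT_UDCA lay near KO_UDCA for both.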
